A study of Mus musculus with 15 samples.

Results

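The 5 perilipins and 5 further lipid droplet proteins of mouse fat were followed in inguinal white adipose tissue, a subcutaneous depot. The 10 genes were taken by symbol from a table of 37991 genes: Plin1, Plin2, Plin3, Plin4, Plin5, Cidea, Cidec, Fitm1, Fitm2 and Bscl2. All 10 were found, and 9 of them passed a filter on low counts that left 12188 genes for testing; Fitm1 did not. The RNA came from C57BL/6 mice aged 8 weeks, in 15 libraries of 3 groups with 5 libraries each. The dKO group carried AdipoqCre with floxed LKB1 and floxed HDAC4 alleles (AdipoqCre LKB1 F/F; HDAC4 F/F). The KO group carried AdipoqCre with floxed LKB1 alleles (AdipoqCre LKB1 F/F). The WT group carried the floxed LKB1 alleles without Cre (LKB1 F/F), so all 3 groups share those alleles. AdipoqCre is a recombinase driven by the adiponectin promoter, which is active in adipocytes, while the RNA came from whole tissue with its other cells. LKB1 is a kinase that activates AMPK and related kinases, and HDAC4 is a class IIa histone deacetylase.

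Adipocytes store triglyceride in droplets whose surface is coated by perilipins, which control how far lipases reach the stored fat. Plin1 is the main coat protein of white adipocytes, whereas Plin5 is known from tissues that burn fat, where it ties droplets to mitochondria. CIDE proteins pass lipid from small droplets to large ones, and Cidea is typical of brown and beige fat. FIT proteins and seipin act in the endoplasmic reticulum, where droplets form.

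Plin4 and Plin5 stand next to each other on chromosome 17 on the minus strand, with 1798 bases between them in mm9. Plin5 differed between the groups and Plin4 was not called in any comparison, so their promoters are shown side by side. RefSeq windows on GRCm38.p6, from 250 bases before to 50 after the transcript start, were found for 9 of the 10 genes. Cidea was not among them. Capitals mark AGGTCA, the half-site bound by many nuclear receptors. The Plin5 window is chr17:56117499-56117798 and the Plin4 window chr17:56109733-56110032, both on the minus strand and written 5′ to 3′.
Plin5: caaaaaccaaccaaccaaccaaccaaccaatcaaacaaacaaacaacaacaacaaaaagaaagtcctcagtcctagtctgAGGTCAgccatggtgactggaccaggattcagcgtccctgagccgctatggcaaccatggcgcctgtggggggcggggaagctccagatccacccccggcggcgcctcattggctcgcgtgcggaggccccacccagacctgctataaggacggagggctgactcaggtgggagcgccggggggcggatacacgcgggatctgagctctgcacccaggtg
Plin4: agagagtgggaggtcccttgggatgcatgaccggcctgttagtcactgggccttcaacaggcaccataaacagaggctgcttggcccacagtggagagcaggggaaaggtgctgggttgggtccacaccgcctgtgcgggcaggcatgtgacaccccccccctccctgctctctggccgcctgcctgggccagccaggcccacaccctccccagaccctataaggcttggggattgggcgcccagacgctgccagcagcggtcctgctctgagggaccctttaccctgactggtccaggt

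Searched on both strands, AGGTCA stood once in this Plin5 window, 170 bases upstream of the start, and not in the Plin4 window. A second Plin5 window, at a later start, held another just downstream of that start. Matches stood in 4 of the 13 windows of these genes, those of Bscl2, Plin2 and Plin5, and in 16.3% of all 32851 promoter windows. These are matches of letters only, and searches for other motifs are not reported here.

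The libraries held between 1564004 and 12089891 counted reads in dKO, between 2969355 and 21570688 in KO and between 2181109 and 4062909 in WT. Mitochondrial ribosomal RNA took from 33.5% to 50.03% of them. Stk11, the gene of LKB1, was at 16.6 to 22.7 CPM (reads scaled to library size) in dKO, 11.6 to 22.5 CPM in KO and 22.2 to 37.8 CPM in WT. Its log2 fold change against WT was -0.63 in dKO (adjusted p = 0.136) and -0.69 in KO (adjusted p = 0.115). Hdac4 was at 9.41 to 11.2 CPM in dKO, 8.17 to 13.4 CPM in KO and 7.63 to 16.1 CPM in WT, with a log2 fold change of -0.03 in dKO against KO (adjusted p = 0.990). These are counts over whole genes, which include reads outside the floxed exons and from cells without Cre. All 12 adipocyte markers, among them Adipoq, Lep and Fabp4, had reads in every library. None was called with edgeR, and 1 in dKO against KO and 2 in each of the other comparisons had an unadjusted p under 0.05. Their summed level was 4686 to 8331 CPM in dKO, 4754 to 5780 CPM in KO and 4304 to 7057 CPM in WT. The 2 dKO libraries labelled 1753 and 1753-2 (replicates 4 and 5) stood apart from the other 13: they held 6210 and 6187 CPM of Fasn, which makes fatty acids, against 465 to 1079 CPM in the other dKO libraries, 354 to 1871 CPM in KO and 665 to 2590 CPM in WT. The design gives 5 mice in each group, while these 2 titles share a number. Of all dKO pairs these 2 libraries were the most alike, with a chi-square of their counts per degree of freedom of 4.31, against 4.89 to 40.5 for the other dKO pairs. KO replicates 1 and 2, with the separate labels 660 and 662, were at 4.04. The value also depends on read depth, which differed between pairs. Whether they are separate mice was not settled by these values; they were kept as 2 libraries as labelled, and with their counts summed to 1 the log2 fold change of Plin5 in dKO against WT was 1.77 (adjusted p = 0.0227). They also stood apart in cell markers: 10 lymphocyte genes summed to 163.1 and 163.5 CPM there, against 428 to 835 CPM in the other libraries, and the 12 adipocyte genes to 8331 and 8220 CPM, against at most 7057 CPM.

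Per length of transcript, Plin1 and Cidec were the most abundant of the 10 genes. Over all 15 libraries Plin1 averaged 266 ± 53.4 CPM per kb and Cidec, the CIDE protein of large white droplets, 251 ± 54.6 CPM per kb (SD, n = 15). Both were measured in the same libraries, and their difference was not tested. On average Plin1 was above Cidec in dKO (286 against 250 CPM per kb) and KO (270 against 252), and below it in WT (242 against 251). Plin4, a coat protein with a long repeat region that is abundant in white fat, followed at 111 ± 21.0 CPM per kb. Plin2, the coat protein found in most cell types, was at 31.8 ± 12.9 CPM per kb. The order of the lower genes also depended on the group. Fitm2 was at 15.7 ± 4.33 CPM per kb in dKO, 12.4 ± 2.86 in KO and 11.9 ± 2.05 in WT (SD, n = 5 each). Cidea was at 6.45 ± 2.75 CPM per kb in dKO, 17.5 ± 3.92 in KO and 8.89 ± 6.25 in WT, above Fitm2 in KO only. Bscl2 was at 12.5 ± 5.71 CPM per kb in dKO, 9.43 ± 2.08 in KO and 7.15 ± 1.60 in WT. Plin3 was at 4.97 ± 2.11 CPM per kb in dKO, 4.82 ± 0.696 in KO and 3.64 ± 1.80 in WT. Plin5 was at 4.11 ± 1.14 CPM per kb in dKO, 6.57 ± 1.72 in KO and 1.13 ± 0.527 in WT, so it exceeded Plin3 on average in KO alone. Plin1 thus made up most of the perilipin signal per length: 65.8% ± 3.73 in dKO, 63.2% ± 1.92 in KO and 61.4% ± 4.59 in WT (SD, n = 5 each). Plin4 made up 25.1% ± 4.73 in dKO, 25.6% ± 3.01 in KO and 30.2% ± 3.90 in WT.

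**Figure D1:**
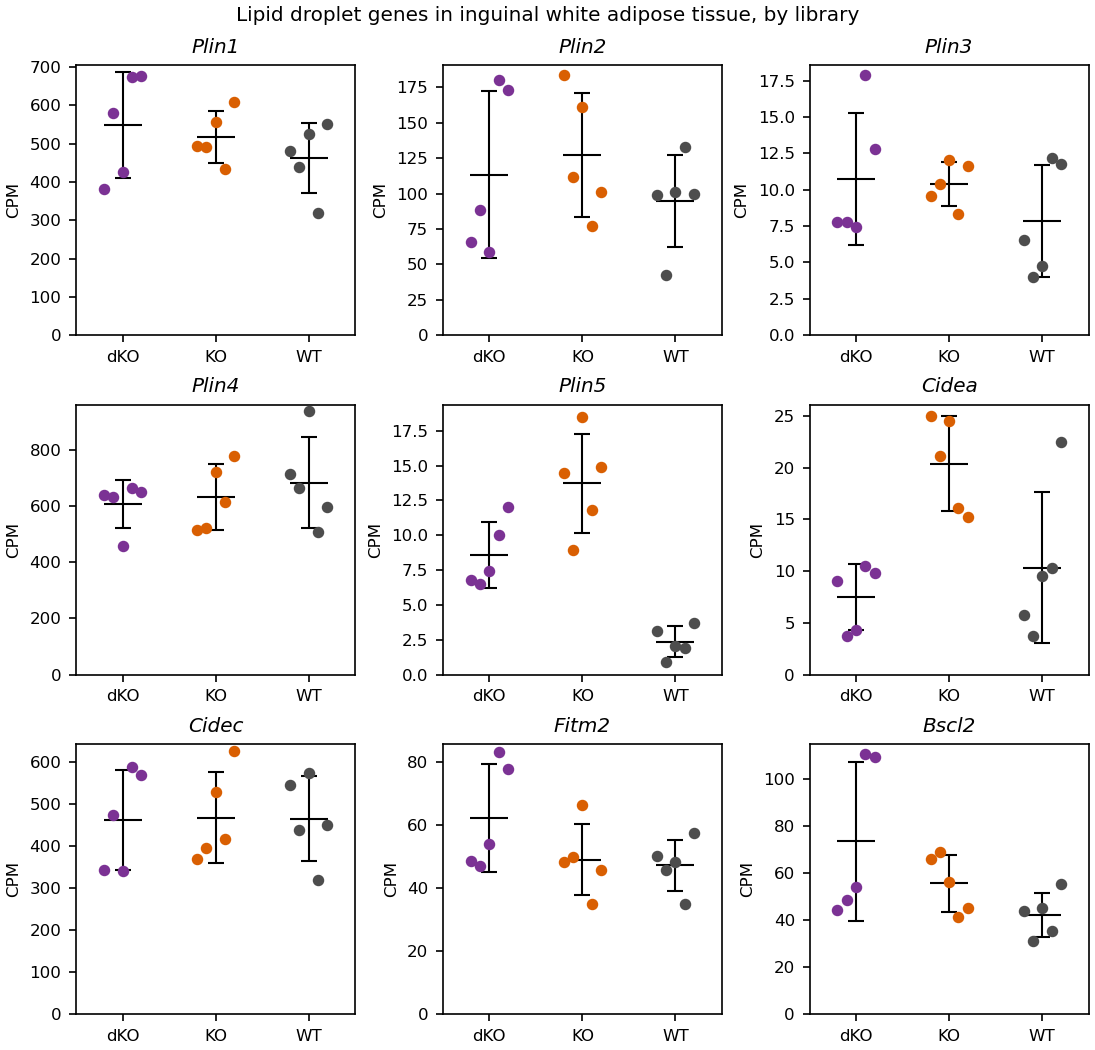
Normalized read counts (CPM, vertical axes from 0) of the 9 tested genes in each library, with dKO, KO and WT from left to right. Points are libraries and bars the mean ± SD of 5. For Plin5 all KO and dKO points lie above the highest WT point of 3.74 CPM; for Cidea all KO points lie above the highest dKO point of 10.5 CPM, while WT spreads over both.

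Deletion of LKB1 in adipocytes was compared with its floxed control by the KO and WT libraries. Both mutant groups carried AdipoqCre and WT did not, so Cre and the deletions cannot be told apart in comparisons with WT. Plin5 was the 1 of 9 droplet genes that rose, 5.58-fold, while Plin1, Plin4 and Cidec, the abundant genes of the white droplet, showed differences under 0.2 on the log2 scale. Across all genes 0.624% were called at an adjusted p under 0.05, and 0.435% were called as higher (edgeR quasi-likelihood test with Benjamini-Hochberg adjustment over 12188 genes, as throughout). Of the 9 genes 2, Plin5 and Cidea, had an unadjusted p under 0.05, as did 9.54% of all genes. The groups did not overlap for 1 of the 9 genes, Plin5, against 3.16% of all genes. The median log2 fold change of the 9 genes was 0.40, with 8 above 0, against 0.01 over all genes tested, of which 50.6% were above 0.

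Plin5 (ENSMUSG00000011305) lies at chr17:56251024-56257019 on the minus strand of mm9, with 9 exons. In KO it was at 14.5, 8.93, 18.5, 11.8 and 14.9 CPM, and in WT at 3.14, 0.929, 2.08, 1.91 and 3.74 CPM. Every KO library was above every WT library. The WT values rest on 3 to 14 reads per library and the KO values on 41 to 299. The log2 fold change was 2.48 (SE 0.31, 95% interval 1.83 to 3.13, adjusted p = 0.000187), rank 11 of all genes by p. In bulk tissue, more RNA per cell and more cells that express a gene cannot be told apart.

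Cidea did not pass the test. It was at 25.0, 21.2, 24.5, 16.1 and 15.2 CPM in KO, and at 5.75, 3.72, 9.50, 10.3 and 22.4 CPM in WT. The groups overlapped through the WT library at 22.4 CPM, and the other WT libraries were all below the KO values. The log2 fold change was 0.98 (SE 0.37, 95% interval 0.20 to 1.76, adjusted p = 0.360), and limma voom with sample weights gave 1.16 with an adjusted p of 0.0444. Without WT replicate 5, the library at 22.4 CPM that caused the overlap, it was 1.48 (adjusted p = 0.0605). These were the lowest adjusted p values of 25 alternatives, of which 1, voom, was under 0.05. DESeq2 gave 0.96 (adjusted p = 0.253). Leaving out the libraries richest in muscle RNA gave the smallest log2 fold change, 0.75, and the highest adjusted p, 0.786. With the muscle level as a covariate the log2 fold change was instead larger than in the main fit, 1.31 (adjusted p = 0.280). Cidea, at chr18:67503218-67527448 on the plus strand, overlaps the opposite-strand gene B430212C06Rik by 540 bases, of which 20 are exonic; strand use in counting is not given in the sources used here.

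The other perilipins overlapped between KO and WT. Plin1, which holds back lipolysis by binding the lipase activator ABHD5, averaged 517 ± 67.2 CPM in KO and 463 ± 91.6 CPM in WT (SD, n = 5 each; log2 fold change 0.16, 95% interval -0.22 to 0.54, adjusted p = 0.873). Plin2 averaged 127 ± 43.9 CPM in KO and 95.05 ± 32.5 CPM in WT (0.42, adjusted p = 0.802). Plin3, a coat protein that also moves through the cytosol, averaged 10.4 ± 1.503 CPM in KO and 7.86 ± 3.88 CPM in WT (0.40, adjusted p = 0.782). Plin4 averaged 631 ± 117 CPM in KO and 684 ± 161 CPM in WT (-0.12, 95% interval -0.48 to 0.25, adjusted p = 0.910), so the neighbour of Plin5 differed by less than the spread of its libraries.

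Cidec gave the smallest difference of the 9 genes: it averaged 468 ± 108 CPM in KO and 466 ± 101 CPM in WT, a log2 fold change of 0.01 with a 95% interval of -0.41 to 0.42. Fitm2, the FIT protein of fat and most tissues, averaged 49.1 ± 11.3 CPM in KO and 47.4 ± 8.11 CPM in WT (0.04, interval -0.36 to 0.45). Bscl2, the gene of seipin, which shapes nascent droplets and is needed for fat storage, averaged 55.6 ± 12.3 CPM in KO and 42.2 ± 9.41 CPM in WT (0.40, interval -0.15 to 0.96, adjusted p = 0.705). Bscl2 overlaps the opposite-strand gene Gng3 by 1780 bases, 398 of them exonic, and Gng3 had 59 reads in all libraries together against 5562 for Bscl2. Fitm1, the FIT protein of skeletal muscle, had 1 read in dKO, 7 in KO and 2 in WT, with 4, 2 and 3 libraries at 0; in the libraries at 0 the count allows a level of up to 0.350 to 1.87 CPM depending on the library (3 counts, counting error only). Fitm1 was not tested.

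**Figure D2:**
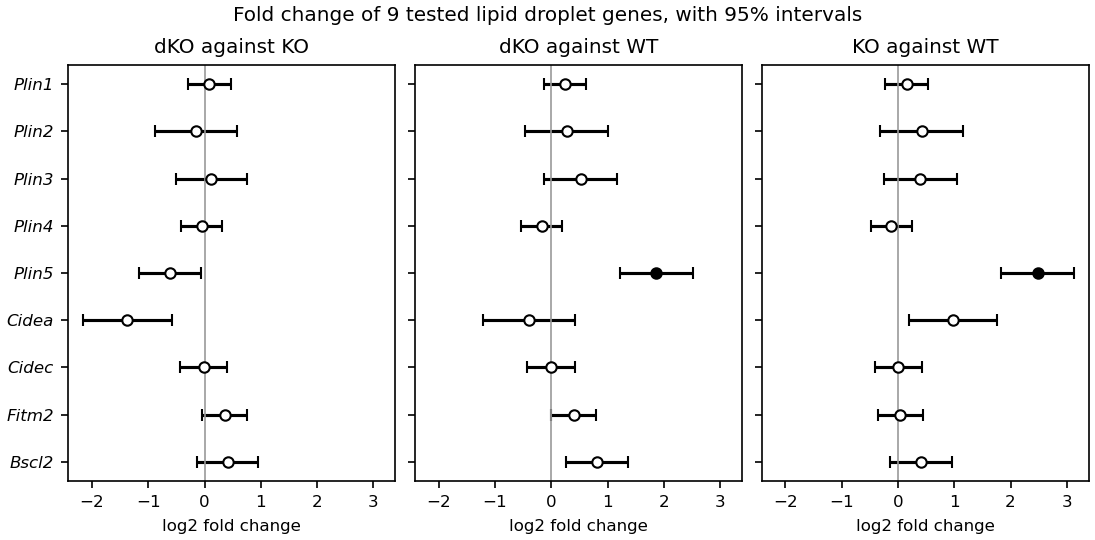
Log2 fold changes (horizontal axes) of the 9 tested genes in 3 comparisons, with 95% intervals. Filled points passed an adjusted p of 0.05: Plin5 in dKO against WT (1.87) and in KO against WT (2.48); all other points are open, Cidea in dKO against KO (-1.37) among them.

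The added floxed HDAC4 alleles were compared by dKO and KO. None of the 9 genes was called with edgeR, against 0.0738% of all genes, and none was called with DESeq2 or voom. Plin5 and Cidea had an unadjusted p under 0.05, as did 6.17% of all genes, and Cidea was the 1 gene of the 9 whose groups did not overlap, against 1.16% of all genes. The median log2 fold change of the 9 genes was -0.01, with 4 above 0, against 0.00 over all genes, of which 50.4% were above 0.

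Cidea was at 9.09, 3.77, 4.35, 10.5 and 9.83 CPM in dKO, against 25.0, 21.2, 24.5, 16.1 and 15.2 CPM in KO. The highest dKO library lay below the lowest KO library. The log2 fold change was -1.37 (SE 0.37, 95% interval -2.15 to -0.59, adjusted p = 0.368), and over all alternative settings the adjusted p was between 0.0738 and 0.648. The difference therefore did not pass the correction over all genes, although all 5 dKO libraries were below all 5 KO libraries. Without both 1753 libraries the log2 fold change was -1.82 (adjusted p = 0.194).

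Plin5 was at 6.82, 6.53, 7.46, 10.04 and 12.04 CPM in dKO, against 14.5, 8.93, 18.5, 11.8 and 14.9 CPM in KO. The groups overlapped: the 2 highest dKO libraries, both labelled 1753, were above the lowest KO library. The log2 fold change was -0.61 (SE 0.26, 95% interval -1.16 to -0.07, adjusted p = 0.770). Without both 1753 libraries the log2 fold change was -0.97, again not past the threshold.

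The remaining genes gave values on both sides of 0. Bscl2 averaged 73.5 ± 33.7 CPM in dKO and 55.6 ± 12.3 CPM in KO (SD, n = 5 each; log2 fold change 0.41, adjusted p = 0.834), and this turned to -0.20 without both 1753 libraries. Fitm2 averaged 62.2 ± 17.2 CPM in dKO and 49.1 ± 11.3 CPM in KO (0.36, adjusted p = 0.821). Plin2 averaged 113 ± 59.1 CPM in dKO and 127 ± 43.9 CPM in KO (-0.15), and Plin3 10.7 ± 4.56 CPM in dKO and 10.4 ± 1.503 CPM in KO (0.12). For Plin1, Plin4 and Cidec the values were 0.09, -0.05 and -0.01, with 95% intervals of -0.29 to 0.47, -0.41 to 0.31 and -0.43 to 0.41.

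In dKO against WT, Plin5 was again the 1 gene of the 9 that rose, with 0.615% of all genes called and 0.427% called as higher. It was also the 1 gene whose groups did not overlap, against 2.1% of all genes, and 3 of the 9 (Plin5, Bscl2 and Fitm2) had an unadjusted p under 0.05, against 14.5% of all genes. The median log2 fold change of the 9 was 0.27, with 6 above 0, against -0.00 over all genes, of which 49.7% were above 0. This comparison and that of KO with WT share the 5 WT libraries.

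Plin5 averaged 8.58 ± 2.38 CPM in dKO and 2.36 ± 1.10 CPM in WT (SD, n = 5 each). The lowest dKO library, at 6.53 CPM, lay above the highest WT library, at 3.74 CPM. The log2 fold change was 1.87 (SE 0.31, 95% interval 1.21 to 2.52, adjusted p = 0.00707). The adjusted p was 0.0747 with voom (log2 fold change 1.76) and 0.0886 without both 1753 libraries (1.49). In a test of any difference among the 3 groups Plin5 was again the 1 of 9 genes past the threshold (adjusted p = 0.000699), as were 0.689% of all genes, and Cidea was next (adjusted p = 0.177).

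Bscl2 was at 44.5, 48.5, 54.1, 111 and 110 CPM in dKO, against 43.9, 31.0, 45.1, 35.5 and 55.3 CPM in WT. The 2 dKO values above 100 CPM are the libraries labelled 1753, and the other 3 lie within the range of WT. The log2 fold change was 0.82 (SE 0.26, adjusted p = 0.171), and 0.20 without those 2 libraries. Fitm2 averaged 62.2 ± 17.2 CPM in dKO and 47.4 ± 8.11 CPM in WT (0.40, adjusted p = 0.342), again with the 1753 libraries highest, at 83.4 and 78.0 CPM against 46.9 to 54.1 CPM in the other dKO libraries.

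The same 2 libraries were the highest of the dKO group for Plin1, Plin2, Plin3, Plin4, Plin5, Cidea, Cidec, Fitm2 and Bscl2, that is for all 9 tested genes. The share of all genes for which this pair was highest was not computed, so the count is not read as particular to droplet genes. Plin2 was at 180 and 173 CPM in the 2 libraries, against 58.5 to 88.4 CPM in the other dKO libraries, 77.4 to 184 CPM in KO and 42.8 to 133 CPM in WT. Plin3 was at 17.9 and 12.8 CPM, against 7.46 to 7.79 CPM in the other dKO libraries. Cidec, at 589 and 569 CPM, compared with 340 to 476 CPM in the other dKO libraries, 370 to 628 CPM in KO and 319 to 574 CPM in WT. Without the pair, Plin2 in dKO against WT had a log2 fold change of -0.41, against 0.27 with it. Plin4 and Cidea were closer, at 664 and 651 CPM for Plin4 against up to 640 CPM in the other dKO libraries, and 10.5 and 9.83 CPM for Cidea against up to 9.09 CPM. The part of Fasn and of the lymphocyte and adipocyte markers, which also set the 2 libraries apart, was not tested.

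Ratios within a library do not depend on how libraries are scaled. The ratio of Plin5 to Plin1 per length was 1.64%, 1.03%, 1.61%, 1.37% and 1.63% in dKO. It was 2.69%, 1.67%, 3.04%, 2.49% and 2.24% in KO, and 0.599%, 0.195%, 0.364%, 0.550% and 0.622% in WT. Every dKO library lay above every WT library and below every KO library. Between dKO and KO the gap was small: 1.64% in dKO replicate 1, from 21 reads of Plin5, against 1.67% in KO replicate 2, from 54 reads. Counting error on so few reads is larger than this gap, and Plin5 itself overlapped between dKO and KO. How often ratios of other genes separate the groups was not tested. The 1753 pair was at 1.37% and 1.63%, inside the dKO range. Leaving libraries out cannot break an order without overlap, so leaving out this pair is no check of it. Plin5 made up 0.955% ± 0.163 of the perilipin signal per length in dKO, 1.53% ± 0.284 in KO and 0.286% ± 0.119 in WT (SD, n = 5 each), so it stayed a minor perilipin of this depot in every group.

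The ratio of Cidea to Cidec was 2.62% ± 1.09 in dKO, 7.34% ± 2.58 in KO and 3.75% ± 2.77 in WT. The dKO libraries, at 1.26% to 4.22%, overlapped the lowest KO library, at 3.87%, and WT ranged from 1.35% to 7.94%. The ratio of Plin2 to Plin1 was 10.8% ± 3.29 in dKO, 13.4% ± 4.62 in KO and 11.9% ± 6.47 in WT, with ranges that overlapped throughout.

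**Figure D3:**
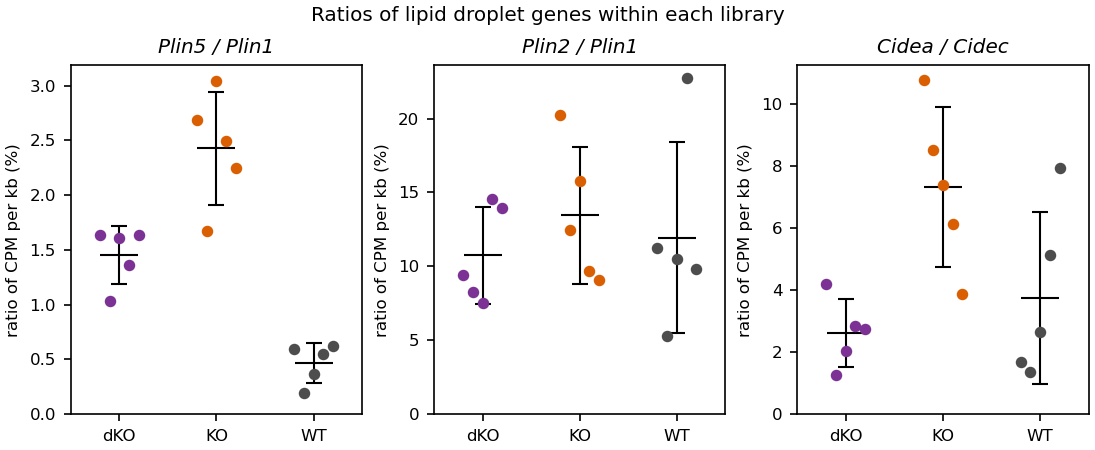
Ratios of CPM per kb within each library, in percent (vertical axes from 0), with dKO, KO and WT from left to right; points are libraries and bars the mean ± SD of 5. Values of the Plin5 to Plin1 ratio were 1.03% to 1.64% in dKO, 1.67% to 3.04% in KO and 0.195% to 0.622% in WT. WT lies below both mutant groups, while dKO and KO nearly touch. The other 2 ratios overlap.

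Plin5 is also expressed in skeletal muscle, and muscle RNA was present in some of these libraries. The summed level of 16 skeletal muscle genes was 41.7 to 536 CPM in dKO, 96.0 to 3792 CPM in KO and 25.9 to 1394 CPM in WT. None of the 12 tested was called with edgeR in any comparison, nor had one an unadjusted p under 0.05. Their median log2 fold change was -2.09 in dKO against KO, with 11 of 12 below 0, -0.44 in dKO against WT, with 11 below 0, and 1.55 in KO against WT, with 11 above 0. Between dKO and KO and between KO and WT these signs are those of Plin5, while between dKO and WT the sign is opposite to that of Plin5. KO replicate 3 had both the highest muscle level, 3792 CPM, and the highest Plin5, 18.5 CPM. The other library rich in muscle RNA was WT replicate 1, with 1394 CPM and 3.14 CPM of Plin5. With the muscle level as a covariate the log2 fold change of Plin5 was 2.38 in KO against WT (adjusted p = 0.00161) and 1.84 in dKO against WT (adjusted p = 0.0129). In dKO against KO it was -0.54 (adjusted p = 0.898). Without KO replicate 3 and WT replicate 1, a choice made after seeing the data, the values against WT were 2.48 in KO (adjusted p = 0.00242) and 1.98 in dKO (adjusted p = 0.0157). The value in dKO against KO was then -0.49 (adjusted p = 0.962). Fitm1, the muscle FIT protein, had 1 read in each of those 2 libraries.

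Macrophages also express Plin2. The summed level of 14 macrophage genes was 729 to 915 CPM in dKO, 782 to 1042 CPM in KO and 936 to 1816 CPM in WT. All 13 tested had log2 fold changes below 0 in dKO against WT and in KO against WT; none was called with edgeR, and 11 and 9 had an unadjusted p under 0.05. WT replicate 4 had the highest macrophage level, 1816 CPM, and the highest WT values of Plin2 and Plin3, 133 and 12.2 CPM, with the lowest Plin1, 319 CPM. The KO and dKO libraries went the other way for Plin2. KO replicate 1 had the lowest macrophage level of KO, 782 CPM, and the highest Plin2, 184 CPM. KO replicate 4 had the highest level, 1042 CPM, and the lowest Plin2, 77.4 CPM. In dKO the 1753 libraries had the lowest levels, 729 and 736 CPM, and the highest Plin2, 180 and 173 CPM. The part of macrophage RNA in the Plin2 and Plin3 values was not tested.

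**Figure D4:**
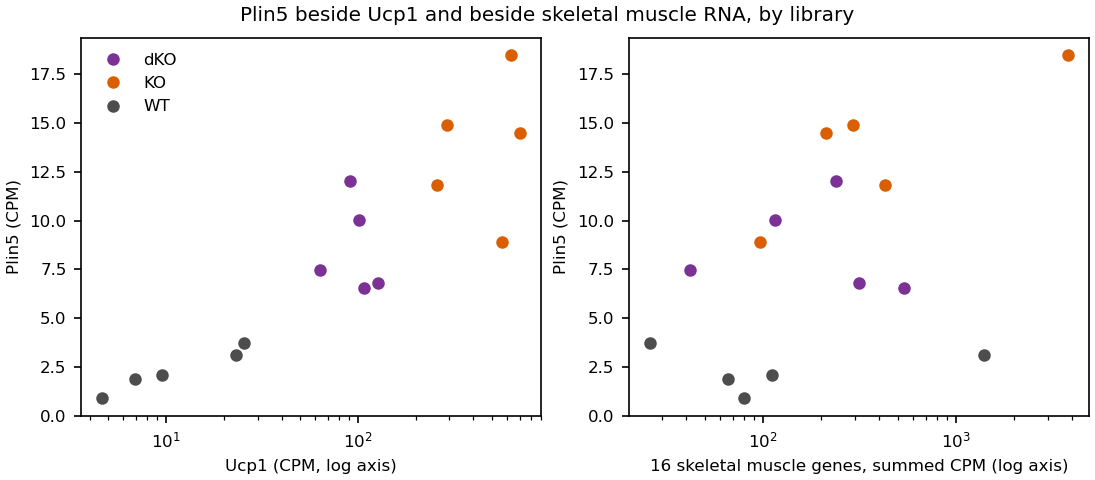
Plin5 (CPM, vertical axes from 0) in each library against Ucp1 (left, CPM, log axis) and against the summed CPM of 16 skeletal muscle genes (right, log axis), coloured by group. On the left Ucp1 separates the 3 groups, while Plin5 of dKO (6.53 to 12.04 CPM) and KO (8.93 to 18.5 CPM) overlaps and WT lies below both; on the right KO replicate 3 (3792 CPM) and WT replicate 1 (1394 CPM) hold the most muscle RNA, with Plin5 at 18.5 and 3.14 CPM.

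Likeness to Plin5 was taken over 10839 genes with enough reads, leaving out symbols of predicted genes, clones and pseudogenes. Among these, log2 CPM followed Plin5 most closely over the 15 libraries for Slc16a1, a lactate and pyruvate transporter (Pearson r = 0.952, Spearman rho = 0.932), and Pon1, a paraoxonase (0.947 and 0.879). Next came Otop1, a proton channel (0.937 and 0.921), Ucp1, the uncoupling protein of thermogenic fat (0.937 and 0.864), and Cox7a1, a cytochrome c oxidase subunit (0.921 and 0.879). These values describe likeness over 15 libraries that share 3 group means, so they hold the group differences and carry no test. Ucp1 itself was at 63.4 to 128 CPM in dKO, 258 to 702 CPM in KO and 4.65 to 25.4 CPM in WT.

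None of 10 genes of lipolysis at the droplet was called with edgeR in any comparison, and 1 had an unadjusted p under 0.05 in each. Pnpla2, which encodes the triglyceride lipase ATGL, averaged 502 ± 81.3 CPM in dKO, 535 ± 77.0 CPM in KO and 492 ± 60.6 CPM in WT (SD, n = 5 each). Lipe, the hormone-sensitive lipase, averaged 402 ± 88.1 CPM in dKO, 348 ± 45.9 CPM in KO and 323 ± 50.2 CPM in WT. The median log2 fold change of the 10 genes was 0.24 in dKO against KO, 0.32 in dKO against WT and 0.10 in KO against WT.

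Of 16 genes of triglyceride synthesis, 1 rose in KO against WT. None was called with edgeR in the other comparisons, with 3 at an unadjusted p under 0.05 in dKO against KO and 7 in dKO against WT. Gyk, the glycerol kinase that re-uses glycerol for triglyceride and is typical of brown fat, averaged 31.6 ± 11.1 CPM in KO and 5.90 ± 2.74 CPM in WT (log2 fold change 2.40, SE 0.28, adjusted p = 0.000105). In dKO it averaged 13.99 ± 2.16 CPM, with a log2 fold change of -1.18 against KO (adjusted p = 0.140) and 1.22 against WT (adjusted p = 0.0669). Acsl1, the acyl-CoA synthetase of adipocytes, averaged 1489 ± 620 CPM in dKO, 1267 ± 223 CPM in KO and 1122 ± 179 CPM in WT. Pck1, which makes glycerol 3-phosphate from pyruvate, averaged 769 ± 216 CPM in dKO, 956 ± 142 CPM in KO and 847 ± 318 CPM in WT.

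Of 24 further genes of the droplet surface and its contacts, Clstn3 was the 1 that rose, in both mutants against WT. The gene encodes a calsyntenin, and in mice a product of this locus limits droplet growth in brown and beige adipocytes. It averaged 15.6 ± 3.96 CPM in dKO and 3.58 ± 2.41 CPM in WT (log2 fold change 2.11, SE 0.39, adjusted p = 0.0204), with no overlap. In KO it averaged 14.04 ± 7.05 CPM (1.99 against WT, SE 0.39, adjusted p = 0.0218), and there the groups overlapped. The KO call was lost on leaving out KO replicate 1 or 2 or WT replicate 2, 3, 4 or 5 in turn, at an adjusted p of at most 0.0909. The dKO call was lost on leaving out dKO replicate 4 or 5 or WT replicate 2, 3, 4 or 5, at an adjusted p of 0.0519 to 0.0714. It was also lost with voom (0.0961) and with the 1753 libraries summed (0.0641) or left out (0.157), that is in 9 of 25 settings. Cav1 and Ptrf, which build caveolae and also coat droplets, averaged 799 ± 290 and 255 ± 70.3 CPM in dKO and 679 ± 111 and 236 ± 20.3 CPM in KO, with log2 fold changes of 0.24 and 0.12 that were not called.

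Of 17 regulators of lipid genes, 2 rose in KO against WT and 1 in dKO against WT. Ppargc1a, a coactivator of mitochondrial and thermogenic genes, averaged 56.6 ± 16.2 CPM in dKO, 62.9 ± 22.0 CPM in KO and 23.8 ± 4.11 CPM in WT. Its log2 fold change was 1.27 in dKO (adjusted p = 0.0218) and 1.42 in KO (adjusted p = 0.00769), each against WT. The dKO call was lost without WT replicate 1, 2, 3 or 5 or dKO replicate 4 or 5. It was also lost with voom (adjusted p = 0.124), with the 1753 libraries summed (0.0702) or left out (0.171), and without the muscle-rich libraries (0.0840). Esrrg, an orphan nuclear receptor of oxidative tissues, averaged 14.8 ± 3.48 CPM in KO and 5.53 ± 2.75 CPM in WT (1.41, adjusted p = 0.0145; 0.0518 without KO replicate 1 and 0.128 without the 2 muscle-rich libraries). In dKO Esrrg averaged 7.20 ± 1.04 CPM, a log2 fold change of -1.02 against KO (adjusted p = 0.278). Pparg, the receptor that drives fat cell formation and several of the droplet genes, averaged 129 ± 48.2 CPM in dKO and 111 ± 21.5 CPM in KO (0.22, adjusted p = 0.888). Cebpa, another such factor, averaged 138 ± 32.0 CPM in dKO and 156 ± 25.4 CPM in KO (-0.18, adjusted p = 0.888).

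Of 12 thermogenic genes tested, 8 rose in KO against WT, 6 rose in dKO against WT, and 1, Ucp1, fell in dKO against KO. This list was chosen with results of these samples known, so its direction is no independent evidence. The log2 fold changes in KO against WT included 6.37 for Dio2, the deiodinase that activates thyroid hormone, 5.10 for Ucp1 and 2.56 for Otop1. In dKO against WT they were 5.36 for Dio2, 2.80 for Ucp1 and 1.75 for Otop1. Of the 6 calls in dKO against WT, those of Cox7a1 and Cox8b, subunits of cytochrome c oxidase, were each lost in 11 of 25 alternative settings, that of Ppargc1a in 10, and that of Ucp1 without both 1753 libraries (adjusted p = 0.0886). Plin5, at 1.87 in dKO and 2.48 in KO against WT, was thus near Otop1 in both comparisons. Ucp1 in dKO against KO was at -2.31 (adjusted p = 0.0393), a call that was lost in 11 of 25 alternative settings, without dKO replicate 1, 2, 3, 4 or 5 or KO replicate 1, 2 or 3 among them; its log2 fold change stayed between -2.47 and -2.14. The median over the 12 genes was -0.76 in dKO against KO, 1.25 in dKO against WT and 1.87 in KO against WT.

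**Figure D5:**
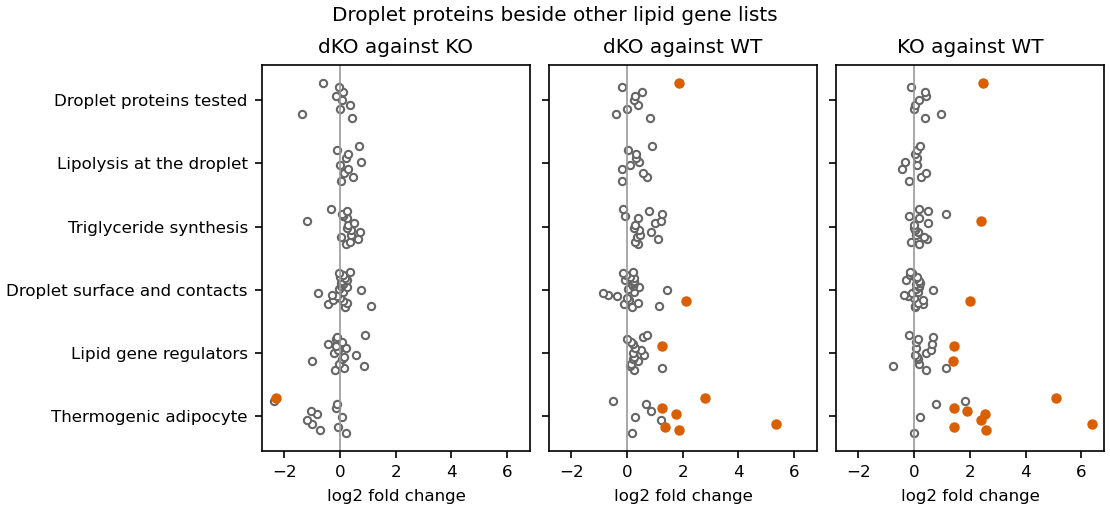
Log2 fold change (horizontal axes) of each tested gene of 6 lists in 3 comparisons; filled orange points passed an adjusted p of 0.05 and open points did not. Called in KO against WT are 8 of 12 thermogenic genes, 1 of 9 droplet proteins, 1 of 16 synthesis genes, 1 of 24 surface and contact genes and 2 of 17 regulators. In dKO against WT these are 6 of 12, 1 of 9, none of 16, 1 of 24 and 1 of 17. In dKO against KO 1 thermogenic gene is called, and none of 10 lipolysis genes is called in any comparison. Gyk, of the synthesis list, and Ppargc1a, of the regulators, are also on the thermogenic list.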

How the data were processed

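Per the labels' protocols, RNA was purified with RNeasy and NuGEN Ovation kits gave 15 libraries. Subread, featureCounts and edgeR were used on mm9, per the submitters' processing notes; their versions, the strand setting and the handling of reads that map more than once are not stated there. The deposited counts are raw reads per gene, per the file headers, and the authors' feature length in bases, another deposited column, gave CPM per kb. The 45 normalized per-library columns of the table were not used.

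Genes were kept by filterByExpr (minimum count 10, minimum total 15). TMM scaling and robust quasi-likelihood fits used edgeR 4.0.16 in R 4.3.3 over all 15 libraries with 1 term per group and two-sided tests. Benjamini-Hochberg adjustment ran over 12188 genes, with calls under 0.05. CPM use TMM library sizes. Standard errors are the log2 fold change divided by the root of F. The method was tested on simulated counts. Replicates are numbered in accession order: dKO 1 to 5 carry the labels 2837, 3035, 3037, 1753 and 1753-2. The labels do not say which litters or days the libraries share. Alternatives were DESeq2 1.42.0, limma 3.58.1 (voom), other scaling, filters, covariates and left-out libraries.

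All 10 droplet genes are named. From each other list up to 6 called genes per comparison are named, or the 2 most abundant as values, plus the 5 genes most like a called droplet gene. These 5 were taken from genes whose log2 CPM averaged 1 or more, leaving out symbols of predicted genes, clones and pseudogenes. The droplet genes and lists were chosen with earlier results of these data known. Promoters came from RefSeq tables on GRCm38.p6 and gene positions from the mm9 table; no coordinates were converted. Depth limits Plin5 in WT and Plin3 and Cidea most; intervals given for floors cover counting error only.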

Additional observations from a re-analysis of the deposited data

Results flagged for a closer look

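Of 30 gene and group sets of 5 libraries examined, 2 held a library far from the other 4; chance alone gives about 1 in 20. Plin4 was at 457 CPM in dKO replicate 3, against 632 CPM in the nearest other dKO library, a gap of 0.846 of the group's range where 0.71 is the critical value. That library had the lowest total, 1564004 reads, with 735 reads of Plin4. Without it Plin4 had a log2 fold change of 0.04 in dKO against KO, against -0.05 with it, and neither was called. Fitm1 was at 0.0848 CPM in dKO replicate 5, from 1 read, with the other 4 dKO libraries at 0; this is below the level that 3 reads would give in that library, 0.254 CPM.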

How the results depend on the processing

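Plin5 in KO against WT kept its direction and its call under all 25 alternatives (log2 fold change 2.28 to 2.69, adjusted p 3.60e-10 to 0.00242), and in dKO against WT it kept its direction under all 25 and its call under 23. The call in dKO against WT was lost with voom and without both 1753 libraries, where 0 of the 9 droplet genes was called; voom called 2 in KO against WT. None of the 9 was called in dKO against KO under any of the 25. Leaving out each library in turn left 1 called gene of the 9 in KO against WT, 0 in dKO against KO and 1 in dKO against WT. Ratios within a library were recomputed under 18 alternatives, which only left out or summed libraries. The mean Plin5 to Plin1 ratio was 1.41% to 1.56% in dKO, 2.27% to 2.62% in KO and 0.427% to 0.534% in WT. Leaving out so few libraries moves such means little whatever the data, so this was no test of their stability. No paired analysis was possible because the titles carry mouse labels and no replicate numbers shared between groups.

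Counts over all genes moved more, and the cause was not tested. They were 76 for KO against WT, 9 for dKO against KO, 75 for dKO against WT and 84 for any difference among the 3 groups. In the same order DESeq2 gave 176, 37, 235 and 265. Voom gave 275 for KO against WT, 28 for dKO against WT and 255 for any difference. Fitting 2 groups at a time gave 224, 5 and 32. Summing the 1753 libraries gave 4 for dKO against KO and 26 for dKO against WT, and leaving both out gave 270, 19, 30 and 213. No expression filter gave 19 for dKO against KO. The muscle covariate gave 45 with KO against WT, 44 with dKO against WT, and leaving out WT replicate 1 and KO replicate 3, chosen after seeing the data, gave 39, 5, 33 and 50. Leaving out 1 library gave 36 to 93 for KO against WT, lowest without KO replicate 1. It gave 4 to 13 for dKO against KO, lowest again without KO replicate 1. It gave 27 to 240 for dKO against WT, lowest without dKO replicate 4 and highest without dKO replicate 1, and 54 to 193 for any difference, lowest without WT replicate 4 and highest without dKO replicate 1.

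Values that changed sign were uncalled before and after. Without both 1753 libraries, dKO against KO gave -0.150 for Plin1, -0.407 for Plin3, -0.197 for Bscl2, -0.0243 for Lipe, -0.262 for Acsl1, -0.176 for Cav1, -0.195 for Ptrf and -0.156 for Pparg. Against WT it gave -0.00392 for Plin1, -0.414 for Plin2, -0.0241 for Plin3, -0.149 for Pnpla2, -0.0995 for Acsl1 and 0.0760 for Pck1. With them summed, Plin3 was at -0.0352 in dKO against KO and Pnpla2 at -0.0425 in dKO against WT. With voom, dKO against KO gave -0.00948 for Plin1 and -0.0193 for Ptrf, and dKO against WT gave -0.0847 for Plin2 and -0.0358 for Pnpla2.

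Cidec, nearest to 0, was at -0.0108 in KO against WT with median-of-ratios scaling and with DESeq2, -0.00988 with 2 groups, -0.00922 and -0.00844 with the 1753 libraries summed and left out, -0.0143 with no mitochondrial ribosomal RNA, -0.0320 with voom and -0.114 with the muscle covariate. In dKO against KO, Cidec was at 0.0176 with no filter, 0.0716 with the muscle covariate, 0.00564 without mitochondrial ribosomal RNA and 0.0381 without the 2 muscle-rich libraries. In dKO against WT it was at 0.0187 with no filter and 0.0486 without the muscle-rich libraries. Plin4 in dKO against KO was at 0.0381 with the muscle covariate and 0.00284 without the muscle-rich libraries, where Fitm2 was at -0.0714 and Pnpla2 at -0.0138 in KO against WT and Pnpla2 at -0.0235 in dKO against WT.

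Leaving out 1 library in turn gave ranges that cross 0. In KO against WT these were -0.137 to 0.0859 for Cidec, -0.0963 to 0.142 for Fitm2 and -0.220 to 0.0174 for Plin4. In dKO against KO they were -0.00103 to 0.191 for Plin1, -0.374 to 0.0284 for Plin2, -0.144 to 0.224 for Plin3, -0.114 to 0.0384 for Plin4, -0.111 to 0.119 for Cidec and -0.0197 to 0.1997 for Ptrf. In dKO against WT they were -0.599 to 0.109 for Cidea, -0.122 to 0.0875 for Cidec, -0.0412 to 0.0860 for Pnpla2 and -0.319 to 0.0942 for Pck1. Depth limits the low genes most, with 3 to 14 reads of Plin5 in each WT library.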
